A study of Mus musculus with 12 samples.

Results

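RNA bound to heavy polysomes was compared with total RNA (input) in CD4+ T cells carrying the label 4E, across the 3 heavy and 3 input libraries of that label, which are 6 of the 12 libraries of the series. The libraries were chosen by their titles, and no measured value entered the choice. All 12 libraries come from C57BL/6 mice that were immunised with a preparation the labels call AOV alum and then dosed by mouth every day for 7 days. By the protocols, the animals received vehicle or 4EGI-1 at 25 mg/kg, a compound that keeps the cap-binding factor eIF4E from joining eIF4G. The labels spell out neither 4E nor its counterpart OA, and 4E is taken here to be the arm given the inhibitor. Cells were sorted on CD4 and CD45, and neither the age of the mice nor any pooling of animals is stated in the labels. The title of 4E heavy replicate 3 includes the word ReSubmission.

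A messenger RNA that is being translated carries several ribosomes at once, and such polysomes sediment deep into a sucrose gradient, where they are collected as the heavy fraction. RNAs that are never translated, such as the guide RNAs of the nucleolus, the spliceosomal RNAs and the RNA of the signal recognition particle, lie outside polysomes for the most part or touch ribosomes without being read. Input holds every RNA of the cell that the library preparation captures, so the difference between heavy and input describes how an RNA is distributed relative to all other RNAs measured. It does not give the absolute number of ribosomes on a message.

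Reads counted in genes ranged from 1006422 to 1079178 in the input libraries and from 691449 to 960567 in the heavy libraries. Another 21.8% to 31.4% of counts per library were reads in no gene or ambiguous reads, which entered no test. The table has 26485 gene rows, 12018 of them with a read in these 6 libraries, and the 5505 rows with at least 10 counts in at least 3 of the 6 libraries were tested. Of these, 2141 reached 10 counts in all 3 heavy libraries but not in all 3 input libraries, and for 30 the reverse held. Heavy libraries kept 574555 to 839449 reads outside the small noncoding RNAs and input libraries 234469 to 250238. Levels below are in CPM, counts scaled to a common library size by trimmed mean of M values (TMM). A count of 0 allows up to 5.49 to 5.95 CPM in input and 1.59 to 2.25 CPM in heavy libraries, which covers counting error only. The labels do not say whether replicates are separate animals, so the spread behind each p-value may be technical.

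The sorted cells carried T cell transcripts. Of the 13 CD4 T cell markers listed, 9 were tested and 0 passed the test in either direction, with summed levels of 868 to 988 CPM in input and 1003 to 1143 CPM in heavy. CD45 (PTPRC), which is in this list but not confined to T cells, lay at 284 to 379 CPM in input and 309 to 444 CPM in heavy. The kinase LCK lay at 228 to 337 and 302 to 356 CPM. CD4 itself held 0 counts in the input libraries and 19 in the heavy libraries, CD2 2 and 9, and CD3D 0 in both. Markers of other cells had lower sums: B cell markers summed to 119 to 243 CPM in input and 72.6 to 245 CPM in heavy (4 of 8 tested), erythroid and platelet markers to 18.3 to 153 and 13.2 to 79.6 CPM (1 of 12), myeloid markers to 16.5 to 42.1 and 13.2 to 24.8 CPM (1 of 11), stromal and endothelial markers to 36.3 to 47.6 and 21.7 to 39.8 CPM (1 of 8). CD8 T and NK cell markers reached at most 3.75 CPM. In bulk libraries, fewer cells of a type and less RNA per cell cannot be told apart.

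The clearest difference between the fractions was in small noncoding RNA. These rows (snoRNAs, scaRNAs, spliceosomal RNAs, 7SL, 7SK, and the RNAs of RNase MRP and RNase P) held 75.1%, 78.3% and 76.4% of gene reads in input replicates 1 to 3 and 10.6%, 14.5% and 16.9% in heavy replicates 1 to 3. The groups do not overlap, with means of 76.6% ± 1.58 in input and 14.0% ± 3.18 in heavy (SD, n = 3 each). The difference of means was -62.6 percentage points, with an exact two-sided permutation p of 0.1, the smallest that 3 against 3 libraries allow. Counting error was far below this spread: the 95% Wilson interval of the lowest share ran from 10.5% to 10.7%. Without the 7SL rows the difference was -27.5 points. The labels describe the libraries as made from polyadenylated RNA, and how RNAs of this class entered them was not tested.

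**Figure D1:**
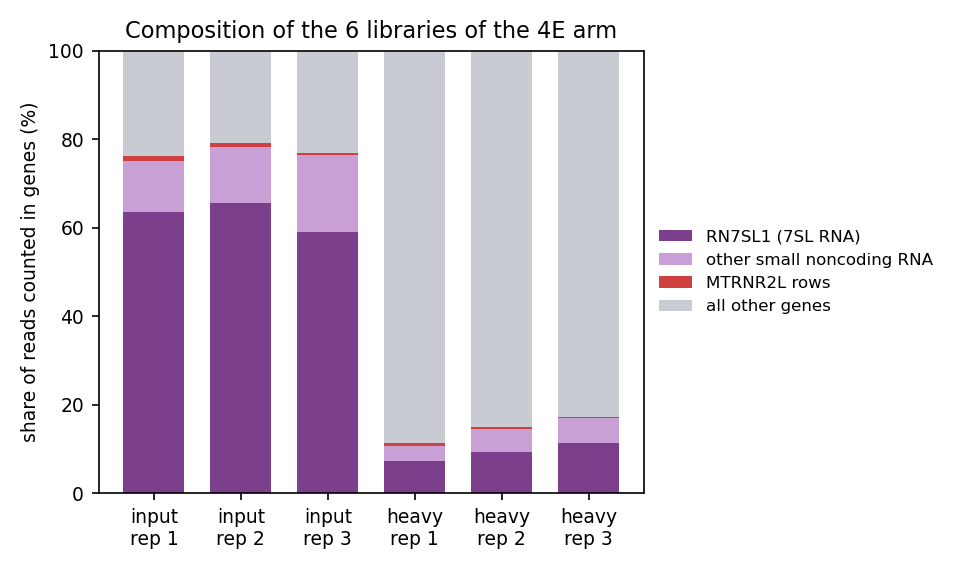
Share of gene reads (y axis, percent) in each of the 6 libraries of the 4E arm (x axis), stacked by RN7SL1, the other small noncoding RNA rows, the MTRNR2L rows and all other genes. Small noncoding RNA takes 75.1% to 78.3% of input libraries and 10.6% to 16.9% of heavy libraries.

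RN7SL1, the 7SL RNA that scaffolds the signal recognition particle, made up most of the class. It took 63.5%, 65.5% and 58.9% of gene reads in the 3 input libraries and 7.25%, 9.28% and 11.4% in the 3 heavy libraries. Every heavy library lay below every input library, and the scaled level fell by 4.70 on the log2 scale (SE 0.43, edgeR quasi-likelihood adjusted p = 1.9e-08). Its near copy RN7SL2 fell by 4.58 (SE 0.27, adjusted p = 9.34e-12), and reads that both rows share may have been split between them.

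The members shown here stand for the kinds of RNA the class holds and for its exception, and their mouse sequences are shown 5′ to 3′ as DNA letters from GENCODE M21 (build GRCm38, matched by symbol). Rmrp (chr4:43492788-43493058, minus strand) is the catalytic RNA of RNase MRP, Rn7sk (chr9:78175303-78175633, minus strand) is 7SK, Snora23 (chr7:110046364-110046547, plus strand) is an H/ACA guide RNA inside an intron of Ipo7, and Snord22 (chr19:8725866-8725991, plus strand) is a C/D snoRNA that lies within Snhg1 and overlaps an annotated exon of it. Of Rn7sk, which is 331 bases long, the first 300 bases are shown. Capitals mark the ACA box of Snora23, 3 bases from its end, and the D box (CTGA) of Snord22.
Rmrp: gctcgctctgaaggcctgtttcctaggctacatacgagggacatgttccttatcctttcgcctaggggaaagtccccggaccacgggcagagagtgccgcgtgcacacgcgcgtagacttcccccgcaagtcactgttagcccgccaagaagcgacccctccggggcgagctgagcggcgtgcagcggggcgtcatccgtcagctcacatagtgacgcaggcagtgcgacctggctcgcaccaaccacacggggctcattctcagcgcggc
Snora23: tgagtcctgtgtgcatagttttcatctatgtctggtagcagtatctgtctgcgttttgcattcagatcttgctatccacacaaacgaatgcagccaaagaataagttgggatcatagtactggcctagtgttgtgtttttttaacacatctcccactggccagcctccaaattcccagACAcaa
Snord22: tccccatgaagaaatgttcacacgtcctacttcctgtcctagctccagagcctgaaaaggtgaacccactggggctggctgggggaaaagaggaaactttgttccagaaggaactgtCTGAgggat
Rn7sk: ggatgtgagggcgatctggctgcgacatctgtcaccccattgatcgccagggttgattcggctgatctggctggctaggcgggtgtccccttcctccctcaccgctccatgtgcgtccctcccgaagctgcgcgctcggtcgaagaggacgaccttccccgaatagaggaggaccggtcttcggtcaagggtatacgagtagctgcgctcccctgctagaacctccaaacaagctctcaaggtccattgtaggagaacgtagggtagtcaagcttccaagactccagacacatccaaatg
Read on the RNA strand, 18.3% of the 1507 snoRNA transcripts of that annotation have ACA at this distance from the end, and 30.1% have CTGA within the last 12 bases. The reads themselves were counted by gene symbol, and these letters describe the reference, not the reads.

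RMRP lay at 54071, 68537 and 65793 CPM in input and at 2528, 4654 and 4997 CPM in heavy. Its level fell by 3.95 (log2, SE 0.29, adjusted p = 4.23e-10) with no overlap between the fractions. SNORA23, which directs pseudouridylation of other RNA, had 2048, 2443 and 4063 CPM in input against 55.1, 71.4 and 85.6 CPM in heavy, a 40.3-fold lower mean (log2 -5.34, SE 0.25, adjusted p = 2.08e-13). SNORD22 had 2728, 4335 and 3793 CPM in input against 128, 318 and 234 CPM in heavy (log2 -4.00, SE 0.26, adjusted p = 3.72e-11). In each of these RNAs all 3 heavy libraries lay below all 3 input libraries.

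7SK was the exception. RN7SK, the scaffold of a nuclear complex that holds the transcription elongation factor P-TEFb inactive, lay at 8404, 9153 and 6443 CPM in input and at 6084, 8426 and 7347 CPM in heavy. The fractions overlap, and the difference of -0.13 (log2, SE 0.20) did not pass the test (adjusted p = 0.904). Without composition scaling, which raises every RNA in heavy, the value was 1.82.

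Of the 55 small noncoding RNA rows tested, 54 were called lower in heavy (adjusted p under 0.05) and 0 higher, beside 1.38% of all 5505 rows called lower and 0.0545% called higher. The median log2 difference was -4.59 in the class and 0.01 over the 5450 rows outside it. All 54 rows had every heavy library below every input library, a pattern that 6.92% of all rows showed. Of the 491 rows of the class in the table, 143 held a read in these libraries; without any filter, 127 of them had a lower mean level in heavy, together 2728886 reads, and 16 had a higher one, together 41 reads. The filter let 24 class rows pass through their input libraries alone, so the count over rows that passed is a description and the unfiltered counts stand beside it.

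By kind, H/ACA snoRNAs had the most negative median, though 10 of the 26 rows tested had under 10 counts in every heavy library. With the row that had no heavy reads set at its bound, the median was -5.05. The 26 H/ACA snoRNAs tested, a kind whose members mostly guide pseudouridylation, were all called lower, with a median of -5.19. For SNORA81 the input values were 298, 357 and 495 CPM and the heavy values 3.71, 8.46 and 9.01 CPM, a 54.3-fold lower mean (log2 -5.78, SE 0.27, adjusted p = 2.08e-13). The least affected of this kind was SNORA38B at -2.71 (SE 0.55, adjusted p = 0.00432), whose call was lost without 4E heavy replicate 2 (-2.39, adjusted p = 0.0555), in the fit over all 12 libraries (adjusted p = 0.0789) and without composition scaling (-0.77, adjusted p = 0.173).

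The 8 C/D snoRNAs, a kind whose members mostly guide methylation of ribose, were called lower with a median of -4.13. SNORD94 went from 846, 1101 and 1166 CPM in input to 39.2, 66.6 and 56.3 CPM in heavy (log2 -4.26, SE 0.20, adjusted p = 2.08e-13). SNORD3A, the U3 RNA needed to cleave the ribosomal RNA precursor, had the smallest fall of the kind, from 3485, 5743 and 7063 CPM to 633, 1116 and 1567 CPM (log2 -2.30, SE 0.27, adjusted p = 1.07e-06). Its call was lost in the fit over all 12 libraries (adjusted p = 0.26) and without composition scaling (-0.34, adjusted p = 0.167). SNORD67 and the H/ACA RNA SNORA28 had 0 counts in all 3 heavy libraries. Against a floor of 3 counts, their mean levels were at least 24.5-fold and at least 17.9-fold lower in heavy.

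scaRNAs, which guide modification of spliceosomal RNA in Cajal bodies, were called lower in 8 of 8 cases with a median of -4.72. They spread widely. The log2 difference was -4.41 for SCARNA10 (SE 0.24, adjusted p = 1.78e-12), -2.52 for SCARNA2 (SE 0.18, adjusted p = 2.82e-10) and -1.65 for SCARNA17 (SE 0.35, adjusted p = 0.00847). SCARNA17 lay at 49.4, 69.4 and 68.8 CPM in input and at 23.8, 10.1 and 26.3 CPM in heavy. Its call was lost without 4E input replicate 2 or without 4E heavy replicate 2, with values of -1.57 to -1.32 and adjusted p of 0.0613 to 0.065. It was also lost in the fit over all 12 libraries (adjusted p = 0.327). Without composition scaling its value was 0.30.

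All 7 spliceosomal rows were called lower, with a median of -4.30. RNU11, part of the minor spliceosome that removes rare introns, fell from 534, 748 and 1067 CPM to 4.24, 16.9 and 18.8 CPM (log2 -5.91, SE 0.31, adjusted p = 1.14e-12). RNU4-2 and RNU4-1, near-identical rows for U4, had log2 differences of -4.30 and -4.14, both called, and reads may have been split between them. The smallest fall was that of RNU2-2P, a U2 row, from 2420, 1729 and 5514 CPM to 557, 607 and 400.3 CPM (log2 -2.62, SE 0.29, adjusted p = 3.86e-07). RPPH1, the RNA of the transfer-RNA processing enzyme RNase P, fell by 3.26 (SE 0.25, adjusted p = 6.29e-10), and RNU105B fell by 4.19 (SE 0.29, adjusted p = 1.22e-10). Replicate 3 was the highest input library for RNU11, RNU4-2, RNU2-2P and RNU4-1, the last with 17751, 19151 and 55513 CPM in input.

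**Figure D2:**
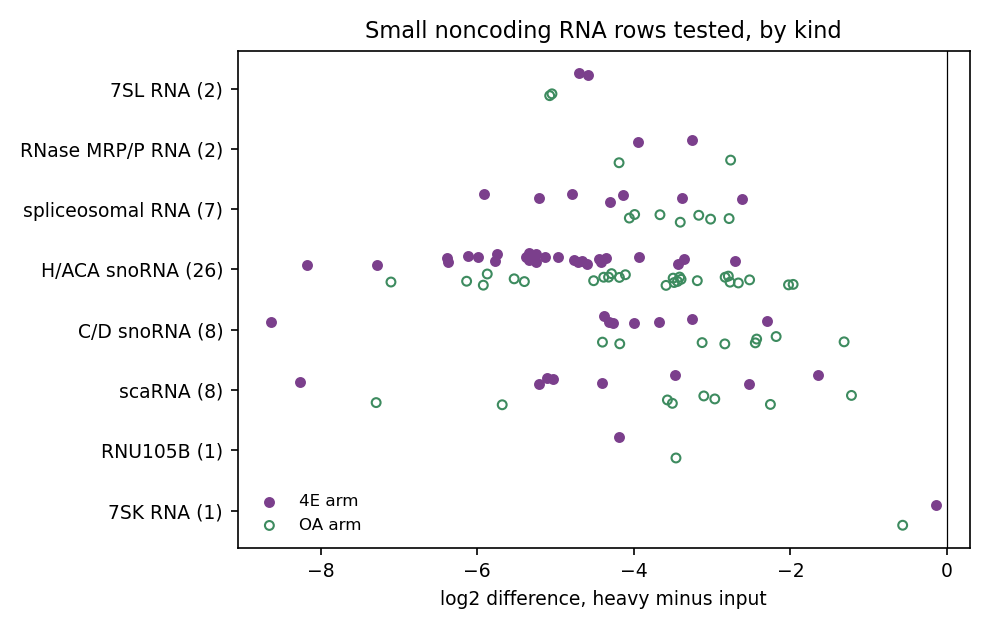
Log2 difference of heavy minus input (x axis) for each of the 55 small noncoding RNA rows tested, by kind (y axis, number of rows in parentheses), filled for the 4E arm and open for the OA arm. In the 4E arm all points but 7SK lie at -1.65 or below, and 7SK lies at -0.13. Rows without a read in heavy are drawn at their fitted value, which is not a bound.

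The OA arm gave the same direction. OA and 4E share no libraries, so the comparison of heavy with input was repeated in OA within a fit over all 12 libraries. All 76 rows called lower in 4E had a negative difference in OA, and 48 of them were called lower there too (42 in the class and 6 outside it), beside 0.872% of all rows called lower in OA. Without OA replicate 1, which stands apart from the other OA libraries, 54 rows were called lower in OA.

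The arms were also set against each other for the size of the difference. For 43 of the 55 class rows the difference was more negative in 4E than in OA, and the median of the 4E difference minus the OA difference was -0.97. These rows passed a count minimum set on the 4E libraries alone. Of them, 24 reached it in every 4E input library but not in every 4E heavy library. Such a filter can favour rows that are high in 4E input, so this count and the medians by kind are descriptions. Medians by kind were -5.19 in 4E and -3.54 in OA for H/ACA snoRNAs, -4.13 and -2.64 for C/D snoRNAs, -4.72 and -3.31 for scaRNAs, and -4.30 and -3.41 for spliceosomal RNAs. For the 7SL rows the order was turned round, at -4.64 in 4E and -5.06 in OA. The test of the difference between the arms (the interaction), fitted without a replicate term, called 0 of 5505 rows by edgeR and 0 by DESeq2, with 107 rows at an unadjusted p under 0.05 by edgeR. With a term for replicate number, edgeR called 6 class rows instead (RNU11, RNU5B-1, SNORA51, SNORA63, SNORA73A and SNORD22). Without that term, the median SE of the difference between arms for a single class row was 0.91. Leaving out single libraries moved the class median of the interaction between -1.72, without OA input replicate 3, and -0.36, without OA heavy replicate 3.

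Outside the small noncoding RNAs, heavy and input were alike for most genes. Of the 5450 rows tested, 22 were called lower (0.404%) and 3 higher (0.055%), and at an unadjusted p under 0.05 there were 197 lower (3.61%) and 201 higher (3.69%). The log2 differences had quartiles of -0.24 and 0.28 around a median of 0.01, and 95.2% lay within 1 of 0. Among the 3275 rows with a mean of at least 25 CPM, 99.4% did. The median SE was 0.36, and 0.18 over the 1005 rows with a mean of at least 100 CPM. Shifts of single messages that are small beside these SEs may thus have gone undetected. Ranks of levels outside the class correlated between fractions at a Spearman coefficient of 0.876 to 0.911 and within fractions at 0.867 to 0.926, both across genes, which are not independent replicates.

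**Figure D3:**
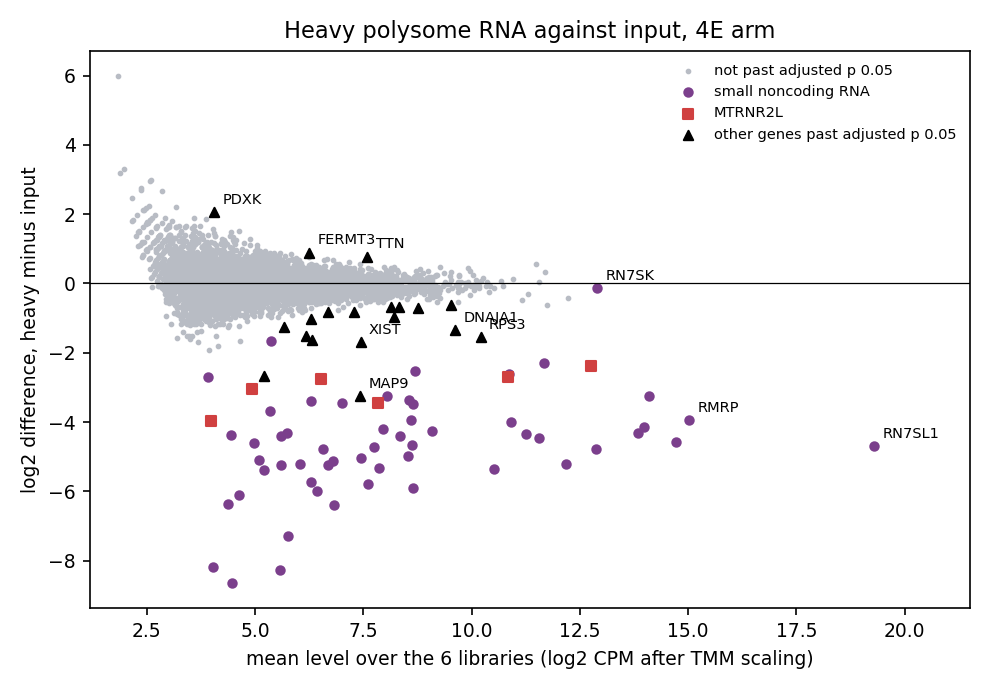
Log2 difference of heavy minus input (y axis) against the mean level over the 6 libraries (x axis, log2 CPM after TMM scaling) for the 5505 rows tested in the 4E arm. Small noncoding RNA rows other than RN7SK lie below the bulk of genes, whose median outside the class is 0.01, as do the 6 MTRNR2L rows.

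These values depend on how libraries are scaled, because small noncoding RNA fills most of the input reads. With total gene counts alone the median of all rows moved to 1.95 and 5318 rows were called higher, so each difference here is relative to the bulk of messages. On that scale 51 class rows and 5 others were still called lower, but the falls of XIST, HSPA1A, DRAP1, UBB, CXCR4, RAB11FIP4, CREBZF, TSC22D3 and of the translation and chaperone genes called lower below turned to rises of 0.25 to 1.35. That these rises are less than the shift of all genes follows from the setting and is no separate check. Leaving the class out of the scaling gave 76 lower and 1 higher calls.

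Genes of the MTRNR2L family had some of the largest falls outside the class. These are nuclear copies in the human genome that resemble the mitochondrial 16S ribosomal RNA, and the table names them although the samples are mouse. All 6 tested of the 10 rows were called lower, with a median of -2.90, beside 0.404% of all rows outside the class called lower. MTRNR2L6 had 14141, 11908 and 8713 CPM in input and 3175, 2129 and 1316 CPM in heavy (log2 -2.39, SE 0.26, adjusted p = 3.79e-07). MTRNR2L1 had 428, 573 and 260.0 CPM in input and 52.5, 29.6 and 33.0 CPM in heavy (log2 -3.44, SE 0.25, adjusted p = 3.26e-10). The groups do not overlap in any of the 6 rows. Without composition scaling MTRNR2L6 was at -0.44 and missed the threshold (adjusted p = 0.0885). The log2 differences of MTRNR2L2, MTRNR2L5 and MTRNR2L7 were -3.04, -2.75 and -2.71, and that of MTRNR2L10, named after its values were seen, was -3.98. MTRNR2L10 (15, 18 and 14 counts in input, 4, 1 and 4 in heavy) and MTRNR2L2 (32, 40 and 13 counts in input, 11, 6 and 15 in heavy) reached the count minimum in every library only in input, so the count over rows that passed is a description. MTRNR2L2 lost its call without composition scaling (-1.09, adjusted p = 0.0506) and in the fit over all 12 libraries (adjusted p = 0.124). As shares of gene reads, the 10 rows made up 0.789% ± 0.19 of input and 0.548% ± 0.231 of heavy (SD, n = 3 each). By this measure the fractions overlap, with heavy replicate 1 at 0.793% and input replicates 2 and 3 at 0.777% and 0.605%. Near-identical copies may have shared reads, so the rows are not independent, and which mouse RNA the reads came from was not tested.

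Among the other genes, MAP9 and SEPP1 fell most. MAP9, a microtubule-associated protein of the spindle, lay at 260, 407 and 272 CPM in input and at 37.1, 26.4 and 35.3 CPM in heavy (log2 -3.25, SE 0.21, adjusted p = 5.38e-11). SEPP1, the secreted selenium carrier selenoprotein P, lay at 43.9, 77.3 and 70.7 CPM in input and at 14.3, 7.40 and 7.51 CPM in heavy (log2 -2.68, SE 0.38, adjusted p = 3.23e-05). Both groups are separate in both genes. In OA the same differences were -3.26 (adjusted p = 0.0736) for MAP9 and -1.02 (adjusted p = 0.998) for SEPP1. Without OA replicate 1 they were -3.02 (adjusted p = 3.35e-08) and -1.52 (adjusted p = 0.466). In 4E the call of SEPP1 was lost without composition scaling (-0.72, adjusted p = 0.0992). The difference between arms for SEPP1 was -1.67, with an unadjusted p of 0.033 and no call after adjustment.

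**Figure D4:**
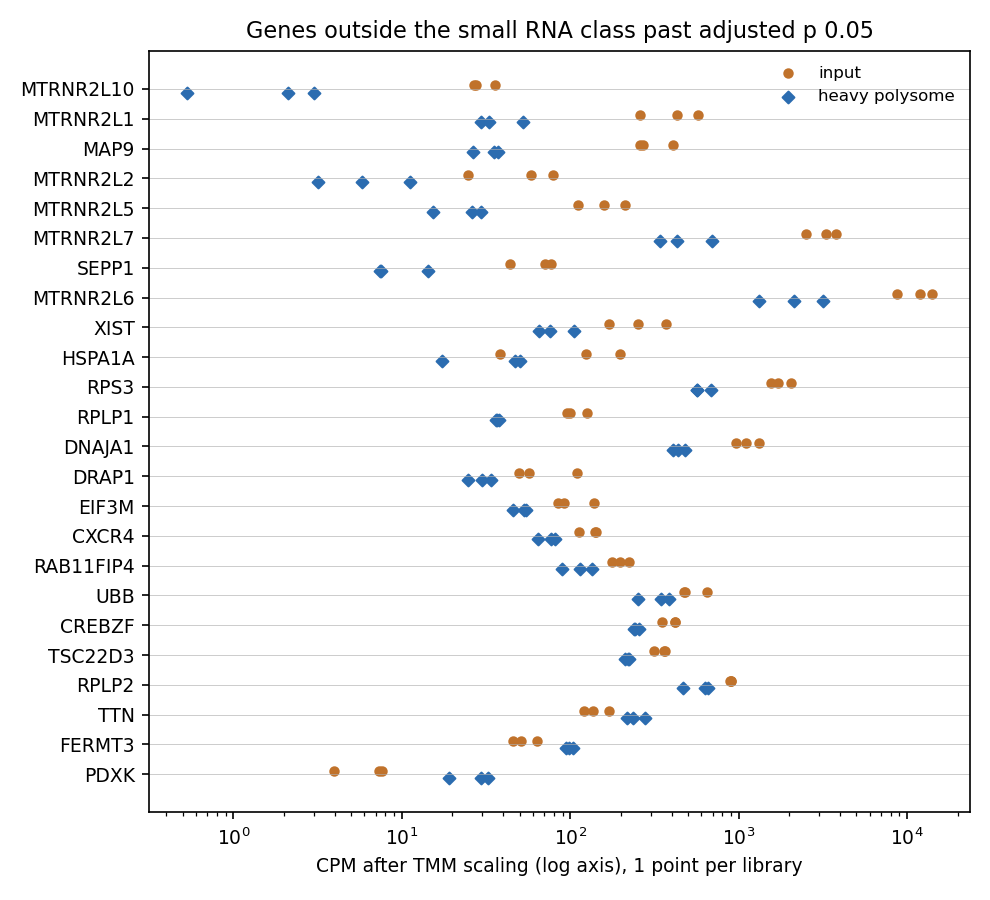
CPM after TMM scaling (x axis, log scale) in each library for 24 of the genes outside the small noncoding RNA class with an adjusted p under 0.05 (y axis), circles for the 3 input and diamonds for the 3 heavy libraries. The fractions are separate in every gene drawn but HSPA1A, and only TTN, FERMT3 and PDXK are higher in heavy.

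Among long noncoding RNAs held in the nucleus, XIST was lower in heavy. This RNA, which coats the silenced X chromosome, lay at 170, 252 and 373 CPM in input and at 65.2, 75.6 and 105 CPM in heavy (log2 -1.70, SE 0.23, adjusted p = 1.64e-05). In the fit over all 12 libraries its call was lost (adjusted p = 0.124). MALAT1, an abundant RNA of nuclear speckles, lay at 4216, 4188 and 4105 CPM in input and at 2911, 2752 and 2491 CPM in heavy. Its fractions do not overlap, but the difference of -0.62 (SE 0.16) missed the threshold (adjusted p = 0.0689). MALAT1 passed it with DESeq2 (adjusted p = 7.64e-05) and without 4E heavy replicate 1 (-0.66, adjusted p = 0.0311). It also passed with a term for replicate number (adjusted p = 0.00358). Among such RNAs 15 had rows and 3 were tested, and XIST alone was called, beside 0.404% of all rows outside the class called lower. TUG1, the other of them, had -0.69 (SE 0.29, adjusted p = 0.515). NEAT1, with 31 counts in the 6 libraries, was not tested.

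Translation genes included a few falls in groups whose medians were close to 0. Of 49 cytosolic ribosomal protein genes tested, 3 were called lower and 0 higher, with a median of -0.19 and 36 values below 0. In 8 of them every heavy library lay below every input library. Over the 5450 rows outside the class, 0.404% were called lower, 2655 lay below 0 and 327 had every heavy library below every input library. RPS3, a protein of the small subunit at the entry site of the message, lay at 1556, 1701 and 2038 CPM in input and at 567, 567 and 686 CPM in heavy (log2 -1.54, SE 0.16, adjusted p = 1.86e-07). RPLP1, an acidic protein of the ribosomal stalk, lay at 95.2, 99.2 and 126 CPM in input and at 37.6, 36.5 and 36.8 CPM in heavy (log2 -1.53, SE 0.24, adjusted p = 0.00011). Its stalk partner RPLP2, named after its values were seen, lay at 895, 900.3 and 883 CPM in input and at 659, 630 and 466 CPM in heavy (log2 -0.61, SE 0.15, adjusted p = 0.0467). The fractions are separate in all 3 genes. RPLP2 lost its call without any single library but 4E heavy replicate 1, with values of -0.67 to -0.48 and adjusted p of 0.111 to 0.353.

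Other messages that begin with a 5′ terminal oligopyrimidine tract, the sequence through which growth signalling tunes translation of this group, gave 0 calls in 17 genes (median -0.04). TPT1, a growth-related protein of this group, had -0.53 (SE 0.18, adjusted p = 0.276). It was called without 4E input replicate 2 (-0.72, adjusted p = 0.0317) and with a term for replicate number (-0.51, adjusted p = 0.0241). The elongation factor EEF1A1 had 0.75 (SE 0.39, adjusted p = 0.643). Of 24 initiation factor genes 1 was called lower and 0 higher (median -0.12), beside 0.404% of all rows outside the class called lower. EIF3M, a subunit of the factor that brings the small ribosomal subunit to the message, lay at 84.2, 139 and 91.8 CPM in input and at 53.0, 45.5 and 54.8 CPM in heavy (log2 -1.04, SE 0.24, adjusted p = 0.0178). The fractions are separate, but the call was lost without 4E input replicate 2 (-0.79, adjusted p = 0.323) and without 4E heavy replicate 2 (-0.96, adjusted p = 0.141). EIF4G1, the scaffold that 4EGI-1 keeps from eIF4E, had 359, 367 and 346 CPM in input against 377, 326 and 284 CPM in heavy (log2 -0.12, SE 0.15, adjusted p = 0.884). EIF4E itself held 14 counts and was not tested, and EIF4EBP1 held 0.

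Chaperone genes gave 2 falls among 22 tested (median -0.07), beside 0.404% of all rows outside the class called lower. DNAJA1, a partner protein of HSP70, lay at 1102, 1321 and 966 CPM in input and at 434, 479 and 410.0 CPM in heavy (log2 -1.35, SE 0.16, adjusted p = 9.73e-07). HSPA1A, the inducible HSP70, lay at 124, 198 and 38.2 CPM in input and at 50.3, 47.0 and 17.3 CPM in heavy (log2 -1.62, SE 0.38, adjusted p = 0.0241). In HSPA1A the fractions overlap, since replicate 3 was the lowest library of both, and DESeq2 did not call it (adjusted p = 0.713). Its call was also lost without 4E input replicate 1 or 2 or 4E heavy replicate 2 or 3, with values of -1.79 to -1.07 and adjusted p of 0.0744 to 0.488. The subunit CCT2 of the folding chamber for actin and tubulin had 0.32 (SE 0.17, adjusted p = 0.643).

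Another 6 genes called lower were named after their values were seen. UBB, a polyubiquitin gene read as a chain of ubiquitin units, fell by 0.71 (SE 0.17, adjusted p = 0.0307), from 478, 652 and 476 CPM in input to 253, 387 and 345 CPM in heavy. DRAP1, a repressor of transcription initiation, fell by 1.26 (SE 0.31, adjusted p = 0.035), and CXCR4, the receptor for the chemokine CXCL12, by 0.84 (SE 0.20, adjusted p = 0.0286). For CXCR4 the values were 114, 143 and 140 CPM in input and 64.1, 80.9 and 76.6 CPM in heavy. RAB11FIP4, an effector of vesicle recycling, fell by 0.83 (SE 0.19, adjusted p = 0.0158), the transcription factor gene CREBZF by 0.68 (SE 0.15, adjusted p = 0.0107) and TSC22D3, the glucocorticoid-induced leucine zipper, by 0.67 (SE 0.15, adjusted p = 0.0148). In all of these genes every heavy library was below every input library.

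Of the 21 genes called lower outside the class that are reported here, 12 were called in every fit that left out 1 library and 9 lost the call in at least 1. CREBZF lost it without 4E input replicate 2 or 3 or 4E heavy replicate 2 (-0.67 to -0.64, adjusted p 0.0578 to 0.0906), and RAB11FIP4 without 4E input replicate 2 or 4E heavy replicate 1 or 2 (-0.83 to -0.67, adjusted p 0.0927 to 0.12). DRAP1 lost it without 4E input replicate 2 or 4E heavy replicate 2 or 3 (-1.27 to -0.84, adjusted p 0.139 to 0.539), and UBB without 4E input replicate 2 or 4E heavy replicate 1 or 3 (-0.75 to -0.54, adjusted p 0.0742 to 0.305). TSC22D3 kept it only without 4E input replicate 3 or 4E heavy replicate 1 (otherwise -0.68 to -0.63, adjusted p 0.0598 to 0.0917), and CXCR4 only without 4E input replicate 1 (otherwise -0.91 to -0.74, adjusted p 0.0698 to 0.161). In the fit over all 12 libraries these 6 genes lost the call (adjusted p 0.0708 to 0.866), as did RPLP2 (0.499), EIF3M (0.102) and HSPA1A (0.762).

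Genes called higher in heavy numbered 3. TTN, which encodes the giant muscle protein titin, lay at 137, 171 and 120 CPM in input and at 277, 235 and 218 CPM in heavy (log2 0.77, SE 0.18, adjusted p = 0.0178). FERMT3, the integrin activator kindlin-3 of blood cells, lay at 51.3, 45.6 and 63.1 CPM in input and at 98.5, 94.6 and 104 CPM in heavy (log2 0.89, SE 0.23, adjusted p = 0.0494). PDXK, the kinase that makes active vitamin B6, lay at 7.32, 3.97 and 7.65 CPM in input and at 19.1, 29.6 and 32.3 CPM in heavy (log2 2.06, SE 0.53, adjusted p = 0.0494); it was named after its values were seen and reached the count minimum through its heavy libraries alone. The fractions are separate in all 3, as they are upward in 7.68% of all rows, but 0 of them kept the call in every fit that left out 1 library. TTN lost it without 4E input replicate 1 or 3 or 4E heavy replicate 1 or 2 (0.67 to 0.80, adjusted p 0.0689 to 0.157), FERMT3 without any library but 4E input replicate 3 (0.79 to 0.92, adjusted p 0.116 to 0.245), and PDXK without any but 4E heavy replicate 1 (1.83 to 2.22, adjusted p 0.104 to 0.295). All 3 also lost it in the fit over all 12 libraries (adjusted p 0.0642 to 0.753). FERMT3 and PDXK lost it with the class left out of the scaling (adjusted p = 0.0553 and 0.0529). They lost it too with median-of-ratios size factors (0.0565 and 0.0542) and with DESeq2 (0.105 and 0.0761). TTN kept the call in each of these settings.

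T cell genes were spread around 0 with 0 calls. Among 29 genes of T cell receptor signalling the median was 0.09. The receptor chain CD3G had 16.5, 19.8 and 22.9 CPM in input against 4.77, 5.29 and 8.26 CPM in heavy (log2 -1.70, SE 0.53, adjusted p = 0.195), and CD5, which dampens receptor signals, 18.3, 7.93 and 11.5 CPM against 29.7, 31.7 and 35.3 CPM (log2 1.34, SE 0.43, adjusted p = 0.238). The fractions are separate in both, yet neither passed the test, and CD3G rests on 9 to 12 counts per library. Among 13 T follicular helper genes the median was 0.04. Their lineage factor BCL6 had 34.8, 55.5 and 57.4 CPM in input against 40.8, 43.4 and 54.1 CPM in heavy (log2 -0.10, SE 0.29, adjusted p = 0.954), and the transcription factor MAF had -0.14 (SE 0.21, adjusted p = 0.904). Naive and memory T cell genes (14 tested) had a median of 0.04, with LEF1 at -0.28 (SE 0.15, adjusted p = 0.643). The 5 regulatory T cell genes tested all lay below 0, with a median of -0.38, as did 2655 of the 5450 rows outside the class. Their lineage factor FOXP3 had 47.6, 69.4 and 53.5 CPM in input against 43.4, 35.4 and 24.8 CPM in heavy (log2 -0.70, SE 0.30, adjusted p = 0.542).

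Messages that depend on cap-binding or on upstream reading frames showed 0 calls. The 18 genes listed as sensitive to eIF4E had a median of -0.07. MCL1, a survival protein of this list, had 84.2, 55.5 and 89.9 CPM in input against 120, 110.0 and 146 CPM in heavy (log2 0.70, SE 0.22, adjusted p = 0.205), with separate fractions. MYC had -0.42 (SE 0.21, adjusted p = 0.63) and CUL1, a ubiquitin ligase scaffold, -0.92 (SE 0.39, adjusted p = 0.53). The 15 genes of the ATF4 stress response and of upstream reading frames had a median of -0.06, with ATF4 at -0.55 (SE 0.23, adjusted p = 0.53). Immediate early genes (20 tested, median -0.07) included the NF-κB inhibitor TNFAIP3 at 0.33 (SE 0.18, adjusted p = 0.674).

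**Figure D5:**
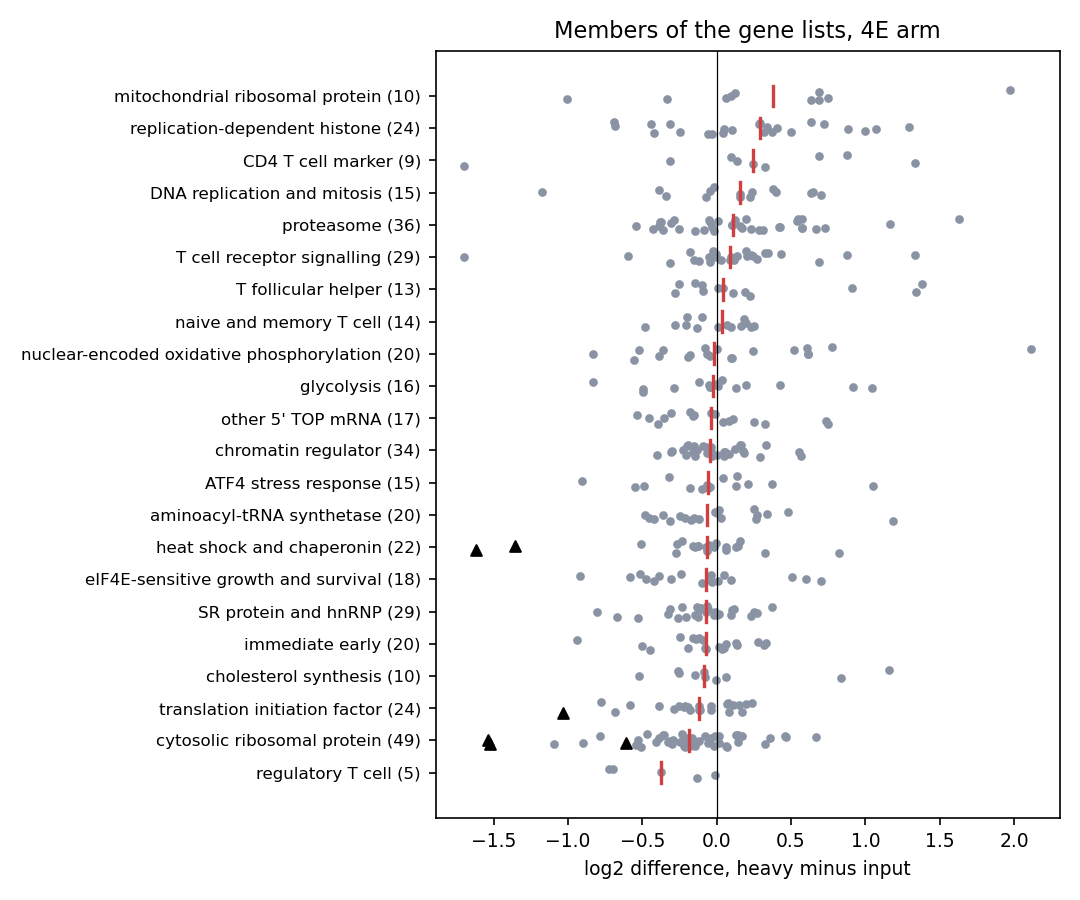
Log2 difference of heavy minus input (x axis) for the tested members of each gene list with at least 5 (y axis, number tested in parentheses), with the list median as a red bar and members with an adjusted p under 0.05 as black triangles. Medians run from -0.38 in regulatory T cell genes to 0.38 in mitochondrial ribosomal protein genes, the latter falling as low as -0.03 under the alternatives. Calls appear in these lists only for ribosomal protein, initiation factor and chaperone genes.

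RNA-binding and chromatin genes were close to 0 as groups. Among 29 SR protein and hnRNP genes 0 were called (median -0.07). HNRNPC, an RNA-packaging protein of the nucleus, lay at 183, 161 and 141 CPM in input against 100.1, 108 and 96.1 CPM in heavy (log2 -0.67, SE 0.18, adjusted p = 0.0836). A fit with a term for replicate number called it (adjusted p = 0.0332). Among 34 chromatin regulators with long coding sequences 0 were called (median -0.05). KMT2D, a histone methyltransferase, lay at 2414, 2227 and 2279 CPM in input against 3527, 3660 and 3044 CPM in heavy (log2 0.56, SE 0.16, adjusted p = 0.126). Its fractions are separate. DESeq2 called it (adjusted p = 0.00409), as did a fit with a term for replicate number (adjusted p = 0.012). TRRAP, a subunit of acetyltransferase complexes, had 0.56 (SE 0.17, adjusted p = 0.198) and SETD2, another histone methyltransferase, -0.40 (SE 0.15, adjusted p = 0.411).

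Housekeeping groups had 0 calls each. The median was 0.11 for 36 proteasome genes, -0.02 for 20 nuclear genes of oxidative phosphorylation, 0.38 for 10 mitochondrial ribosomal protein genes, -0.02 for 16 glycolysis genes, -0.08 for 10 genes of cholesterol synthesis, -0.06 for 20 aminoacyl-tRNA synthetases and 0.16 for 15 genes of DNA replication and mitosis. Mitochondrial ribosomal protein genes had 77 rows in the table, and their median fell as low as -0.03 under the alternatives. Of all rows tested, 2141 reached the count minimum in every heavy library but not in every input library. This can favour higher values in heavy. Medians of lists with few reads are therefore descriptions. The 24 replication-dependent histone genes, whose messages end in a stem-loop without a poly(A) tail, had a median of 0.29 with 16 values above 0. Over the 5450 rows outside the class, 2795 lay above 0. The histone median fell as low as -0.10 under the alternatives. HIST1H4F had 14.6, 11.9 and 5.74 CPM in input against 22.3, 26.4 and 31.5 CPM in heavy (log2 1.29, SE 0.48, adjusted p = 0.403). Its levels stand close to the count minimum, and near-identical histone copies may share reads.

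Coding length varied little with the difference. Of the 5450 rows outside the class, 92.95% matched a mouse gene with a coding sequence in GENCODE M21 by symbol. Over the 3067 of them with a mean of at least 25 CPM, the Spearman coefficient between the longest coding length and the log2 difference was 0.06, given as a description across genes. Medians were between -0.04 and 0.00 in each bin of coding length up to 10000 bases and 0.16 in the 36 genes above it, which include TTN with 105639 bases. The 14 genes called lower that have a coding length had a median of 1076 bases, with 342 for RPLP1 the shortest, beside 1749 bases over all matched genes.

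Some messages carry a snoRNA gene within their bounds, so reads of the guide RNA and of its host can be confused by a count per gene. By GENCODE, 136 of the 5075 matched genes outside the class (2.68%) hold 1 or more snoRNAs on their own strand, and 2 of the 15 matched genes called lower do, RPS3 with Snord15a and Snord15b and RPLP2 with Snora52. The median difference was 0.00 for genes with a snoRNA inside and 0.01 for those without. SNORD15B had a row of its own, which fell by 4.32 (SE 0.47, adjusted p = 3.81e-07). What part snoRNA reads have in the counts of RPS3 and RPLP2 was not tested.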

How the data were processed

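The deposited table gives, for every gene symbol, a count of reads in each library, and 0 of its columns belonged to other samples. Though its name calls them normalised, the values were handled as raw counts, being integers whose totals differ between libraries. The submitters' processing notes list Bowtie and mm9 without a role or version, and no source used here names the counting tool or its annotation. Symbols are human in style: 16185 of 26485 rows match a mouse symbol, and 23 HLA rows hold 15421 reads in the 6 libraries. The reference behind the counts is thus unknown, each gene is compared only with itself between fractions, and 28 rows whose symbols had become dates are never named. The second deposited table holds comparisons between the arms and was not used here.

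The test was edgeR's quasi-likelihood test (version 4.0.16, R 4.3.3) on genes reaching 10 counts in 3 or more of the 6 libraries (TMM factors of 0.467 to 0.543 in input and 1.93 to 2.01 in heavy, 2 group means), with Benjamini-Hochberg adjustment over all 5505 genes and a threshold of 0.05. Each adjusted p in the text is from this fit unless DESeq2 1.42.0, the 12-library fit or another setting is named. Unless a replicate term is named, the interaction and the OA values come from a fit of 4 group means over all 12 libraries. Shares of reads were compared with exact permutation tests in R. Scripts were tested on simulated counts. Sequences, coding lengths and snoRNA positions are from GENCODE M21 by symbol (Python 3.11.15, pandas 2.3.3, scipy 1.17.1).

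The members and gene lists were chosen with earlier results of these data known. The rule for naming took, outside the small noncoding RNA class, up to 10 genes of largest difference in each direction with adjusted p under 0.05, a mean of at least 25 CPM and separate fractions. It also took the 6 class rows with most counts and, in each list, the 2 members of lowest p in each direction and defining members. Not all members that the rule admits are named, and the other class rows in the text were chosen after their values were seen. Some genes that were tested are not reported here. Alternatives were the scaling, the count filter, DESeq2, the 12-library fit, the replicate block and leaving out each library in turn.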

Additional observations from a re-analysis of the deposited data

How the results depend on the processing

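The count of 76 genes called lower stayed between 54 and 100 under the 16 alternatives, and the 54 small noncoding RNA calls changed by over 1.5 times only with a filter of 50 counts, which left 35. The 22 calls outside the class became 10 in the fit over all 12 libraries and 5 without composition scaling, and ranged from 13 (without 4E input replicate 2) to 23 (without 4E heavy replicate 1) when 1 library was left out. Without replicate 3 in both fractions, which drops the library marked ReSubmission, 70 genes were called lower, 17 of them outside the class. The 3 genes called higher became 1 when the class was left out of the scaling, 1 with median-of-ratios size factors, 2 with DESeq2, 5 without a filter, 0 in the fit over all 12 libraries and 5318 without composition scaling, and 0 to 6 when 1 library was left out. With the replicate block, the paired fit, 84 genes were called lower and 5 higher, among them all 79 of the unblocked fit, HNRNPC (adjusted p = 0.0332), TPT1 (0.0241), MALAT1 (0.00358) and KMT2D (0.012). In the same block the interaction called 6 class rows (RNU11, RNU5B-1, SNORA51, SNORA63, SNORA73A and SNORD22) in place of 0. Same-numbered libraries correlated in their deviations from the group means at 0.147, 0.0437 and 0.093 in 4E and at 0.716, 0.141 and 0.397 in OA, and differently numbered ones at 0.00575 at most in 4E. In 4E each same-numbered correlation was above every differently numbered one, but not every pair passed 0.1, the threshold set. The main fits therefore do not pair the libraries, and whether the numbers pair them is not settled. The difference in class share kept its sign in every alternative, from -64.0 to -27.5 percentage points. Under the replicate block an exact sign-flip test gave p = 0.25, the smallest that 3 pairs allow. Fits without OA replicate 1 were added after seeing the data for the OA counts.

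Without composition scaling all values moved up, with a median of 1.95 over all genes. Each gene followed here that changed sign started below 0 and stayed below that shift, an outcome the setting fixes in advance. These genes, a part of all that changed sign, were CD3G (0.23), XIST (0.25), SCARNA17 (0.30), HSPA1A (0.35), RPS3 (0.41), RPLP1 (0.42), DNAJA1 (0.61), DRAP1 (0.71), EIF3M (0.93), CUL1 (1.02), CXCR4 (1.12), RAB11FIP4 (1.13), UBB (1.25), TUG1 (1.25), FOXP3 (1.26), CREBZF (1.27), TSC22D3 (1.28), HNRNPC (1.28), MALAT1 (1.34), RPLP2 (1.35), ATF4 (1.39), TPT1 (1.40), MYC (1.53), SETD2 (1.56), LEF1 (1.67), MAF (1.81), RN7SK (1.82), EIF4G1 (1.84) and BCL6 (1.85). The cause of these changes is the setting itself, which divides by totals that small noncoding RNA fills. Among the genes followed through the other alternatives, the sign turned only in values close to 0 that passed no test. LCK was at -0.018 without replicate 3 in both fractions and ran from -0.019 (without 4E input replicate 3) to 0.24 (without 4E input replicate 2), BCL6 from -0.30 (without 4E input replicate 1) to 0.029 (without 4E input replicate 3), and MAF from -0.29 (without 4E heavy replicate 3) to 0.066 (without 4E heavy replicate 1). Small noncoding RNA leaves each input library 234469 to 250238 reads for all other genes, and the reference used for counting is unknown.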
